A study of Homo sapiens with 6 samples.

Results

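A set of 10 genes of other lineages, 5 epithelial, 3 endothelial and 2 stromal, was read for H3K27me3 in 3 diffuse large B cell lymphoma lines. The epithelial genes were CDH1, EPCAM, TP63, GRHL2 and ESRP1, the endothelial genes CDH5, KDR and TEK, and the stromal genes PDGFRA and CDH2. They were chosen by name and position on hg19, and an island, an interval called enriched over input, counted for a gene when it lay within 5 kb of it. In all, 45 of 72972 listed islands met this rule: 7 of 21320 in Pfeiffer, 12 of 23180 in WSU-DLCL2 and 26 of 28472 in KARPAS-422. Pfeiffer, WSU-DLCL2 and KARPAS-422 are established lymphoma lines, all with mutant EZH2 according to the labels, which give average gIC50 values of 28, 134 and 232 nM in that order without naming the compound, and no treatment of the cells before fixation. Chromatin was fixed with formaldehyde and precipitated with an antibody against H3K27me3. There was 1 H3K27me3 library with its input for each line, from bulk culture, so differences between lines have no replicate check and none was tested. In bulk chromatin, fewer marked cells or gene copies and a weaker mark on each cannot be told apart. Lines are named in this order wherever 3 values are given. The lists held 17044334, 17217610 and 16319667 H3K27me3 reads and 8808243, 8235295 and 5800163 input reads inside islands.

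H3K27me3 is laid down by Polycomb repressive complex PRC2, whose catalytic subunit is EZH2, and it marks silent genes, often those of other lineages. In vertebrates PRC2 is found mostly at CpG-rich promoters, from which the mark can spread over whole genes. Germinal centre B cells, from which this lymphoma arises, are not known to use the adhesion programmes of these other tissues. CDH1, CDH5 and CDH2 encode E-cadherin, VE-cadherin and N-cadherin, which hold epithelial, endothelial and mesenchymal or neural cells together. The files hold no expression values, so whether a gene was silent was not measured here.

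The starts of 4 genes show how different their promoters are, and the data bear on each of them. RefSeq sequences on GRCh38.p14 were found for 5 of the 10 genes, TP63, KDR, TEK, PDGFRA and CDH2, and the last 4 are printed, since their listed start is that of the whole gene. The 250 bases before the start are given 5′ to 3′ on the gene's own strand, with every CpG in capitals.
KDR: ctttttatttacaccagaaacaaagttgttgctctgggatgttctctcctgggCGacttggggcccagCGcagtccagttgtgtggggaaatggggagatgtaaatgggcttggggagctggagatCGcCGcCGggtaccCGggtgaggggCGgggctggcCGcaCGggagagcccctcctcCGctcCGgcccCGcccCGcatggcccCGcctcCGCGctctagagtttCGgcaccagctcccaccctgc
CDH2: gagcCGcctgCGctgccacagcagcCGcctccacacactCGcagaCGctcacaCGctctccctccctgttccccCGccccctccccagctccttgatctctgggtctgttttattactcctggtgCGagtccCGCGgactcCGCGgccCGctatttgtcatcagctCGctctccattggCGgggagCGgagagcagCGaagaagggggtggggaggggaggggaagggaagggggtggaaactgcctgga
PDGFRA: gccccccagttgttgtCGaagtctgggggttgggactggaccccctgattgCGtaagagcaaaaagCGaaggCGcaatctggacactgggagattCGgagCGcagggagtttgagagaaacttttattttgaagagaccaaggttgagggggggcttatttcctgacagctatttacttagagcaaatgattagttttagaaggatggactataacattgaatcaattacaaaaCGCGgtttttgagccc
TEK: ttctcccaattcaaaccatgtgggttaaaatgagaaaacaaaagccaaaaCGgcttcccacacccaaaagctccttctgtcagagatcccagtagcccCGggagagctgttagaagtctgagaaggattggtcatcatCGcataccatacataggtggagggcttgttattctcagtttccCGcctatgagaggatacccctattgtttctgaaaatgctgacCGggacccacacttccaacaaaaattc
KDR and CDH2 each had 17 CpGs in this stretch, PDGFRA 8 and TEK 5, against a median of 11 over 35116 promoters of the table. By a GC content above 50% and an observed over expected CpG ratio above 0.6, KDR and CDH2 were CpG-rich, like 44.8% of all promoters, and TEK and the first start of PDGFRA were not. A second listed start of PDGFRA, 4.67 kb downstream of the first on GRCh38.p14, had 25 CpGs and was CpG-rich. The starts of KDR and CDH2 lay in no island in any line. TEK had an island over its start in KARPAS-422, and PDGFRA over its first start in WSU-DLCL2. That island of WSU-DLCL2 ran 12 kb past the first start of PDGFRA, and would so hold the CpG-rich second start too if its distance is the same on hg19, which was not checked. At that distance Pfeiffer and KARPAS-422 had no island. CpG-rich starts thus lay both outside and, by this distance, inside islands. The letters CACCTG, or CAGGTG on the other strand, an E-box, were in none of these 4 stretches and in 17.5% of all promoters.

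Cover by H3K27me3 islands was uneven over the 10 genes, from nearly all of CDH5 in each line to none of CDH2. An island lay within 5 kb of 6, 6 and 8 genes in the 3 lines. Of all autosomal tiles of 94.5 kb, the median length of the gene windows, 48.1%, 49.4% and 51.4% held an island. The members' count stood farthest above this share in KARPAS-422, where 4 of the 8 genes had no island left at a false discovery rate of 1e-10. Islands covered 50% or more of the window, the gene with 5 kb on either side, at 3, 6 and 3 genes. For tiles the shares with that much cover were 25.0%, 23.9% and 23.5%. An island lay over the start of 3, 4 and 2 genes, where 25.6%, 24.8% and 24.7% of all grid windows of 750 bases were in islands. Tiles run through gene-poor stretches, and no annotation of all genes on hg19 was used here, so these shares are not those of other genes. Over the 1237 kb of the 10 windows together, islands covered 28.6%, 38.0% and 28.3%, against 25.6%, 24.8% and 24.7% of the tiles on average. The median gene had 6.38%, 66.0% and 42.6% of its window covered, and the median tile 0%, 0% and 3.97%. An island was found in all 3 lines at 5 genes (CDH1, EPCAM, GRHL2, CDH5 and PDGFRA), in 2 at KDR, in 1 at TP63, ESRP1 and TEK, and in none at CDH2. The share of tiles with an island in all 3 lines was not computed, so these counts have no background. Folds over input were modest, as they were in the lists as a whole. The median fold of the members' islands was 1.49, 1.74 and 1.58, and that of all listed islands 1.58, 1.54 and 1.61. Of the members' islands, only that of EPCAM in Pfeiffer, 1 of CDH1 in KARPAS-422 and those of CDH5 in KARPAS-422 reached 2.

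**Figure D1:**
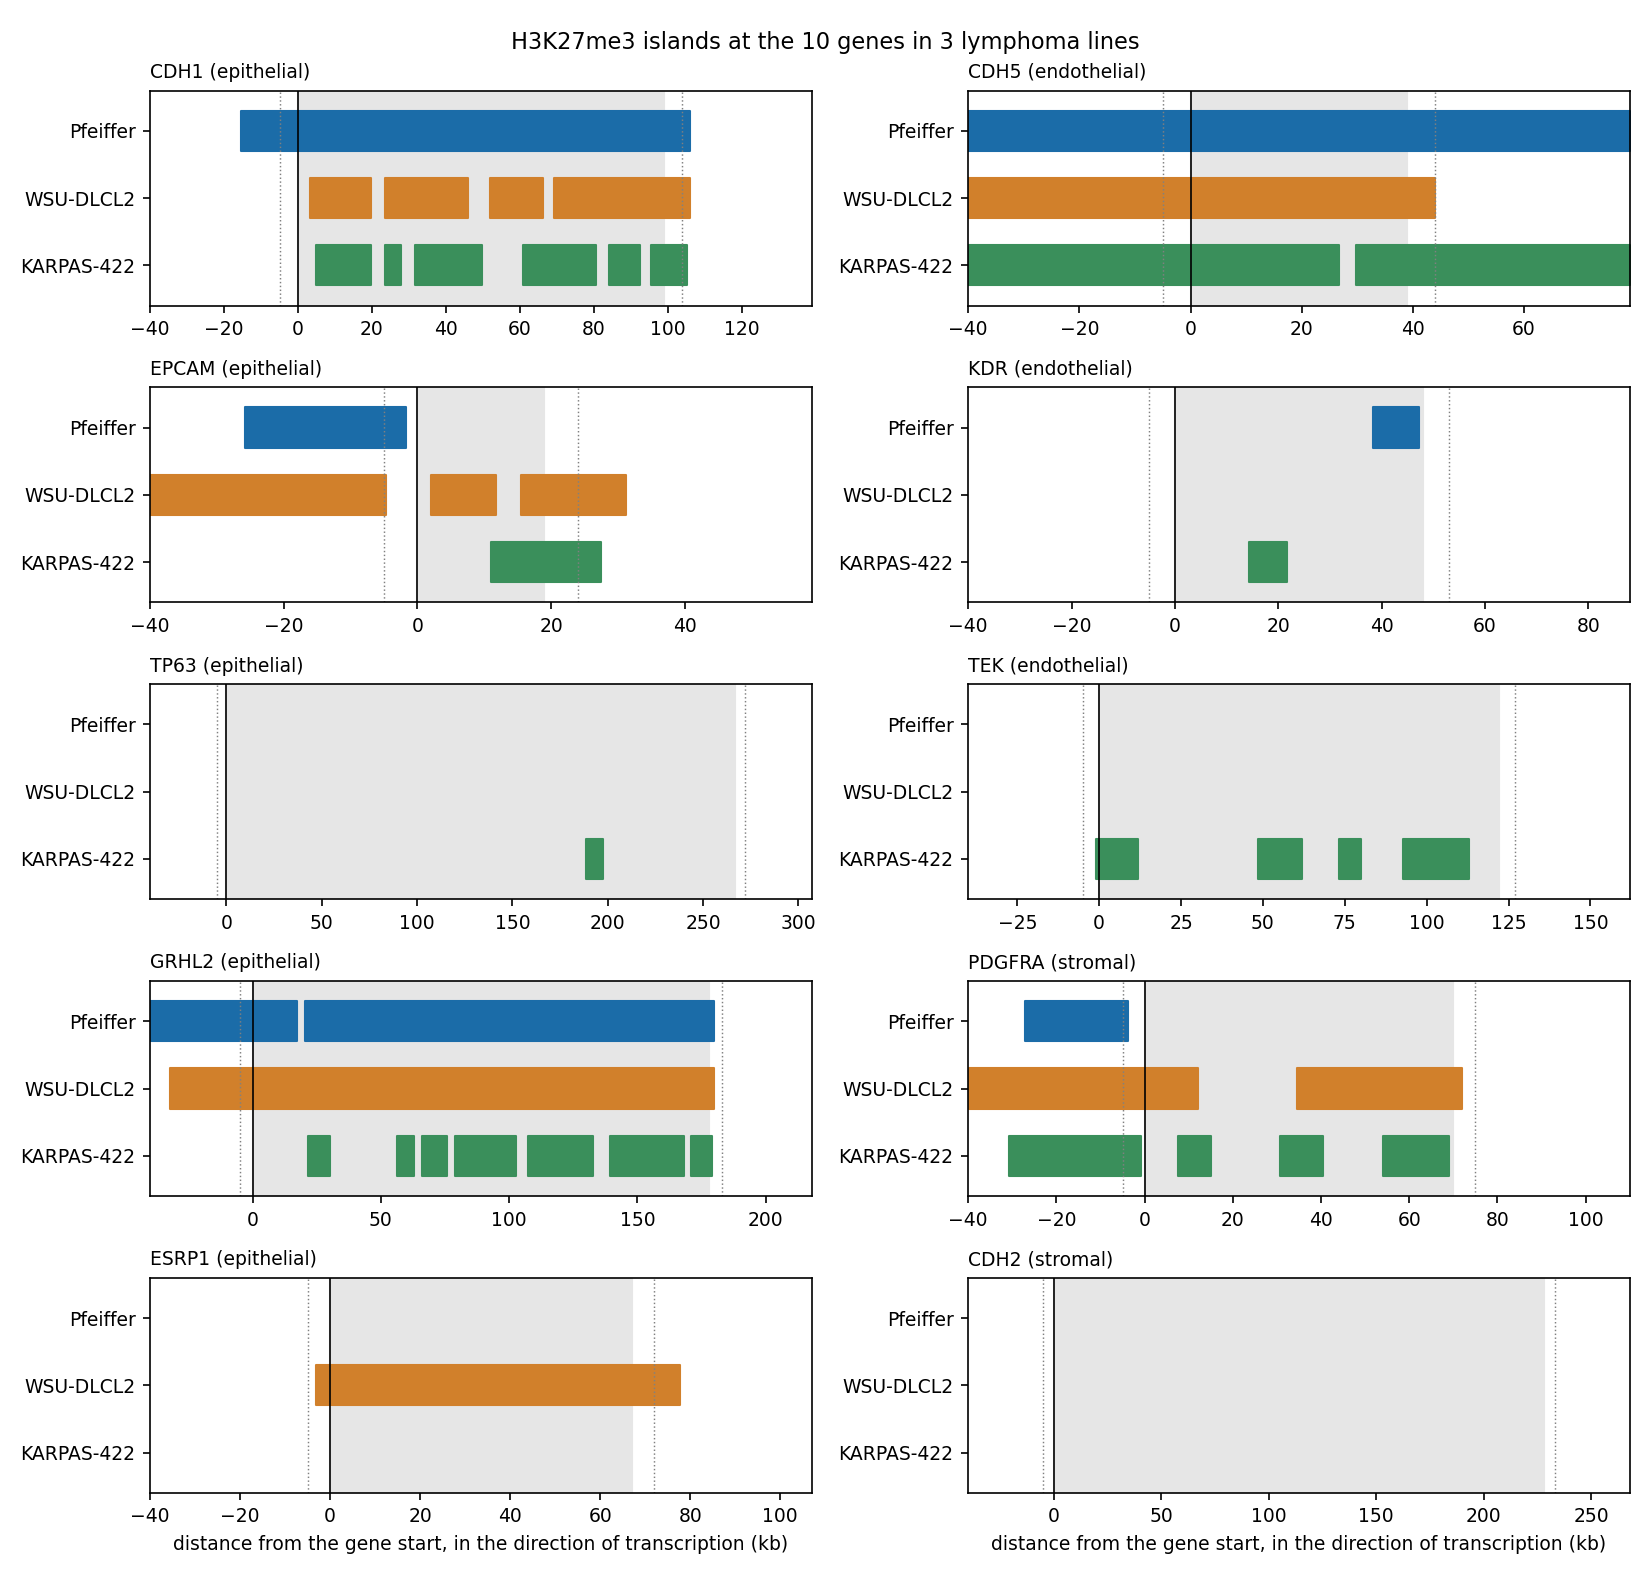
Islands of H3K27me3 along each gene, with the distance from the gene start in the direction of transcription (kb) on the horizontal axis and 1 row per line. Grey marks the gene, dotted lines the 5 kb margin, and bars that meet the edge of a panel go on beyond it; CDH5 is covered in each line, CDH2 in none and ESRP1 in WSU-DLCL2 alone.

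Among the epithelial genes, CDH1 and GRHL2 lay mostly inside islands in every line, GRHL2 in KARPAS-422 only at the authors' false discovery rate. CDH1 encodes E-cadherin, the adhesion molecule that defines epithelia, and lies on chromosome 16 from 68771 to 68870 kb, between CDH3 and TANGO6. Its window was covered to 100%, 80.7% and 67.7%, by 1, 4 and 6 islands. These islands held 3100, 1661 and 1423 H3K27me3 reads over 1694, 818 and 512 input reads. The cover of CDH1 was thus broken up most in KARPAS-422, where the gaps between islands were 3 to 11.25 kb. The whole list of KARPAS-422 also had more and shorter islands, so this is not particular to CDH1. The median length of all listed islands was 20.25, 18.75 and 15 kb. The start of CDH1 lay in the island of Pfeiffer, chr16:68755501-68877000, which reached 15.5 kb upstream. In the other two lines the first island began 3.25 and 4.75 kb downstream of the start and left the start itself free. The 500 kb to either side of the window were covered to only 29.8%, 20.9% and 24.7%, so CDH1 stood above its surroundings in cover in each line. Of tiles of the same length, 2.90%, 10.2% and 15.6% had as much cover. The fold, H3K27me3 over input reads after scaling the libraries, was 1.58 (95% interval 1.48 to 1.67), 1.60 (1.47 to 1.74) and 1.69 (1.53 to 1.87). These exact intervals overlapped between the lines. They account for counting error alone, not for how a second culture would differ. They would be too narrow if reads copied by PCR were counted, since these are not separate molecules. Scaled to the other islands within 2 Mb, the fold of CDH1 was 0.90, 0.79 and 0.85, below them in each line. Relative input, the input reads per kb of islands at and around the gene over the median of the line, was 1.45, 1.02 and 0.99. Relative input can move with DNA copy number; its part in the larger cover of Pfeiffer was not tested.

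GRHL2 encodes a grainyhead transcription factor that drives epithelial genes, CDH1 among them, and lies on chromosome 8 from 102504 to 102682 kb. Its window was covered to 96.8%, 98.4% and 59.0%, by 2, 1 and 7 islands with 6496, 5151 and 2284 H3K27me3 reads over 3921, 3145 and 884 input reads. At a false discovery rate of 1e-10 the cover of GRHL2 in KARPAS-422 fell to 41.5%. A single island of WSU-DLCL2, chr8:102471751-102684000, spanned the whole gene over 212.25 kb and was longer than 99.4% of its list. Its fold of 1.29 (1.23 to 1.35) was above only 9.1% of that list, so the cover was broad and of low fold. The folds were 1.43 (1.37 to 1.48) in Pfeiffer and 1.57 (1.45 to 1.70) in KARPAS-422. Here the interval of WSU-DLCL2 lay below those of both other lines. The folds describe islands of unlike extent, and the intervals cover counting error alone, so this is no test between lines. The start of GRHL2 lay in an island in Pfeiffer and WSU-DLCL2, but in KARPAS-422 the first island began 21.75 kb downstream. Relative input was 1.50, 1.51 and 1.04, so the lines with nearly full cover were those with raised input; the part of input was not tested. In KARPAS-422 the surroundings were covered more than the gene (68.6%), and in WSU-DLCL2 nearly as much (89.6%).

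ESRP1, a splicing regulator of epithelial cells, differed most between the lines. It lies on chromosome 8 from 95653 to 95720 kb. In WSU-DLCL2 a single island, chr8:95649751-95730750, covered 97.7% of the window, from 3.25 kb before the start to 10.75 kb past the end, with 2116 H3K27me3 and 1192 input reads. Neither Pfeiffer nor KARPAS-422 had an island within 5 kb; the nearest lay 19.75 and 102.25 kb from the gene. The fold in WSU-DLCL2 was 1.40 (1.30 to 1.50), below the median of 1.54 of its list and above only 26.6% of it. Relative input around the gene was 1.41, 1.46 and 1.05, nearly the same in Pfeiffer as in WSU-DLCL2. The part of input was not tested. The surroundings of the gene were also covered in Pfeiffer, to 50.8%, with 44.7% and 13.2% in the other two. The gene itself lay in a stretch without islands of 174 kb in Pfeiffer and 510 kb in KARPAS-422. A stretch without an island held too few reads for a call, not necessarily none.

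EPCAM encodes a cell surface adhesion molecule of epithelia and lies on chromosome 2 from 47596 to 47615 kb. Islands covered 11.2%, 63.8% and 44.8% of its window in the 3 lines, at relative inputs of 1.04, 1.07 and 1.06. Cover thus differed by 52.6 percentage points at nearly equal regional input. In the islands of EPCAM alone, input per kb over the same median was 0.78, 0.90 and 0.93. The part of input was not tested. The island of Pfeiffer, chr2:47570251-47594250, held 497 H3K27me3 and 202 input reads and ended 1.75 kb before the start, so the gene body had none. WSU-DLCL2 had 1 island upstream and 1 in the gene, and another lay over the gene end and ran 12.25 kb past it. They held 1650 H3K27me3 reads over 688 input reads together. KARPAS-422 had 1 island over the end of the gene with 271 over 117, which was lost at a false discovery rate of 1e-10. No line had an island over the start of EPCAM. Folds were 2.12 (1.80 to 2.51), 1.89 (1.73 to 2.07) and 1.41 (1.13 to 1.76), but they describe different intervals: Pfeiffer and KARPAS-422 shared no covered base in the window.

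TP63 encodes p63, the transcription factor of basal epithelial cells, and lies on chromosome 3 from 189349 to 189616 kb. It was nearly free of islands. Only KARPAS-422 had one, chr3:189537751-189546750, inside the gene 188.75 kb from the start, with 167 H3K27me3 and 78 input reads. It covered 3.25% of the window, and its fold of 1.30 (0.99 to 1.73) was barely determined by these reads. The island was lost at a false discovery rate of 1e-10. Relative input, read in islands around the gene, was 1.06, 1.84 and 1.61, and the value of WSU-DLCL2 was the highest at any of the genes. The nearest island of WSU-DLCL2 was 254.5 kb from TP63, and only 7 lay within 2 Mb of its window. Input at TP63 itself was thus not measured in WSU-DLCL2. In that line the stretch without islands around TP63 was 1099.5 kb long, and in Pfeiffer 573.75 kb.

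**Figure D2:**
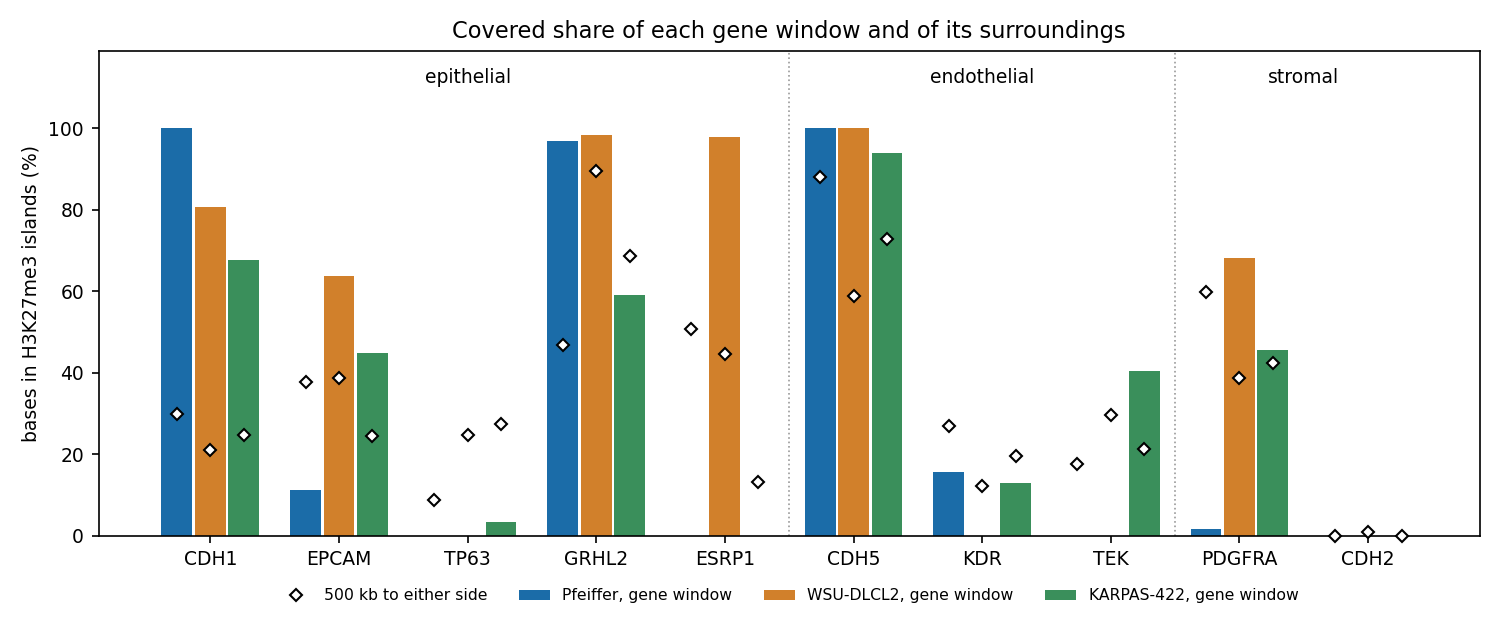
Share of bases in islands (%) for each gene window (bars, 1 per line) and for the 500 kb to either side of it (diamonds). CDH1 and CDH5 stand above their surroundings in each line, while ESRP1, PDGFRA and EPCAM run from little or no cover in Pfeiffer to 97.7%, 68.1% and 63.8% in WSU-DLCL2.

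Of the endothelial genes, CDH5 was covered in every line and KDR and TEK hardly or in KARPAS-422 alone. CDH5 encodes VE-cadherin, the adhesion molecule of endothelial junctions, and lies on chromosome 16 from 66400 to 66439 kb, between CDH11 and BEAN1. Its window was covered to 100%, 100% and 93.9%, and its start lay in an island in each line. Of all 10 genes it was alone in this. The islands were longer than the gene of 39 kb: 419.25 kb in Pfeiffer (chr16:66110251-66529500), 124.5 kb in WSU-DLCL2 (chr16:66319501-66444000) and 106.5 and 52.5 kb in KARPAS-422. They held 14116, 3395 and 3786 H3K27me3 reads over 6814, 1358 and 1051 input reads. The domain of Pfeiffer began 289.75 kb upstream, against 80.5 and 79.75 kb in the other two. The surroundings were covered to 88.0%, 58.8% and 72.7%, so the mark was not limited to the gene. Folds were 1.78 (1.73 to 1.84), 1.97 (1.85 to 2.10) and 2.19 (2.04 to 2.35), with the interval of Pfeiffer below both others. They describe islands of unlike length that reach far beyond the gene. The intervals cover counting error alone, so this order is no test between lines. Relative input was 1.41, 0.98 and 0.94, in the reverse order of the folds; its part in them was not tested.

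KDR encodes VEGF receptor 2, the main receptor for endothelial growth signals, and lies on chromosome 4 from 55944 to 55992 kb, between KIT and SRD5A3. Islands covered 15.5% of its window in Pfeiffer, none in WSU-DLCL2 and 12.9% in KARPAS-422, at relative inputs of 0.97, 0.96 and 1.01. The 2 islands were short and lay apart, chr4:55944751-55953750 at the end of the gene in Pfeiffer and chr4:55970251-55977750 in its middle in KARPAS-422. They held 161 H3K27me3 and 101 input reads, and 136 and 59. Their folds of 1.37 (1.06 to 1.78) and 1.40 (1.02 to 1.94) were above 18.1% and 20.7% of their lists, and both islands were lost at a false discovery rate of 1e-10. The start of KDR, whose CpG-rich sequence is printed above, was 29.25, 166.5 and 14.25 kb from the nearest island.

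TEK encodes the angiopoietin receptor TIE2 and lies on chromosome 9 from 27109 to 27231 kb. Only KARPAS-422 had islands there: 4 of them, covering 40.3% of the window with 941 H3K27me3 over 450 input reads. The first, chr9:27108001-27120750, lay over the start and had a fold of 1.33 (1.05 to 1.70). Together they had a fold of 1.27 (1.13 to 1.43). Their folds were above only 0.78% to 16.3% of the list of KARPAS-422, and their false discovery rates in the authors' list ran from 2.8e-05 to 0.00073, so none was left at 1e-10. Relative input, read in islands around the gene, was 0.89, 0.98 and 1.01. With no island at TEK in Pfeiffer and WSU-DLCL2, input at the gene itself was not measured in these lines. The nearest islands of Pfeiffer and WSU-DLCL2 were 27 and 47.25 kb from the gene, and in Pfeiffer the stretch without islands around it was 5047 kb long, with 44 longer ones on the autosomes.

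**Figure D3:**
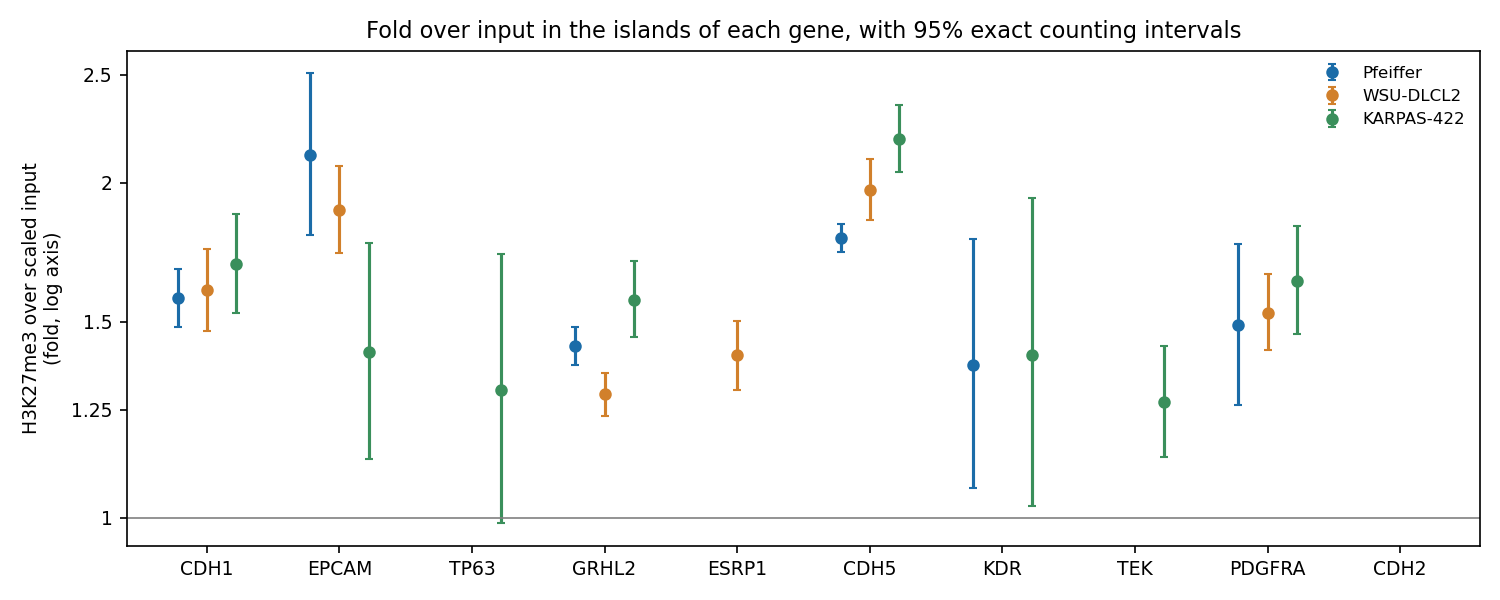
Fold of H3K27me3 over scaled input in the islands of each gene (log axis), with 1 point per line and exact 95% counting intervals; no point means no island. CDH5 has the highest folds in WSU-DLCL2 and KARPAS-422, and TEK (1.27) and TP63 (1.30) have the lowest of KARPAS-422.

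The 2 stromal genes were unlike each other. PDGFRA encodes a receptor for platelet-derived growth factors in mesenchymal cells and lies on chromosome 4 from 55095 to 55165 kb, between GSX2 and KIT. Islands covered 1.56%, 68.1% and 45.6% of its window in the 3 lines, at relative inputs of 0.97, 0.96 and 1.01. As at EPCAM, Pfeiffer had little cover while regional input was nearly equal. In the islands of PDGFRA alone, input per kb over the same median was 0.91, 0.99 and 0.91. The part of input was not tested. Each line had an island upstream, on the side of GSX2. In Pfeiffer it ended 3.75 kb before the start (chr4:55068001-55091250, 396 H3K27me3 and 229 input reads), and the gene body had none. In KARPAS-422 it ended 0.75 kb before the start, less than the 1 kb to which starts are given, and 3 more islands lay in the gene. In WSU-DLCL2 the upstream island, chr4:55055251-55107000, ran over the start and 12 kb into the gene. All islands together held 1872 H3K27me3 over 965 input reads in WSU-DLCL2 and 1166 over 434 in KARPAS-422. At a false discovery rate of 1e-10 the cover of PDGFRA in KARPAS-422 was 24.1%. Folds were 1.49 (1.26 to 1.76), 1.53 (1.41 to 1.65) and 1.63 (1.46 to 1.83), with overlapping intervals although the covered shares lay far apart. The surroundings of PDGFRA were covered to 59.8%, 38.7% and 42.4%, most in the line with least cover on the gene.

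CDH2 encodes N-cadherin, which mesenchymal and neural cells carry in place of E-cadherin, and lies on chromosome 18 from 25530 to 25758 kb, between CHST9 and DSC3. It had no island in any line, and was the one gene of the 10 without any. It lay in a stretch without islands of 4546, 4068 and 4255 kb in the 3 lines. Only 50, 54 and 52 such stretches on the autosomes, centromeres included, were longer. The nearest islands were 1028, 346.5 and 1161 kb away. Of all tiles as long as its window, 41.4%, 39.7% and 37.3% had no island either. Relative input, read in islands up to 2 Mb beyond the bin of the gene, was 0.96, 0.95 and 0.99. No line had an island at CDH2, so input at the gene itself was not measured. Of the cadherins that epithelial and mesenchymal cells exchange, CDH1 was thus mostly covered in each line and CDH2 in none.

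**Figure D4:**
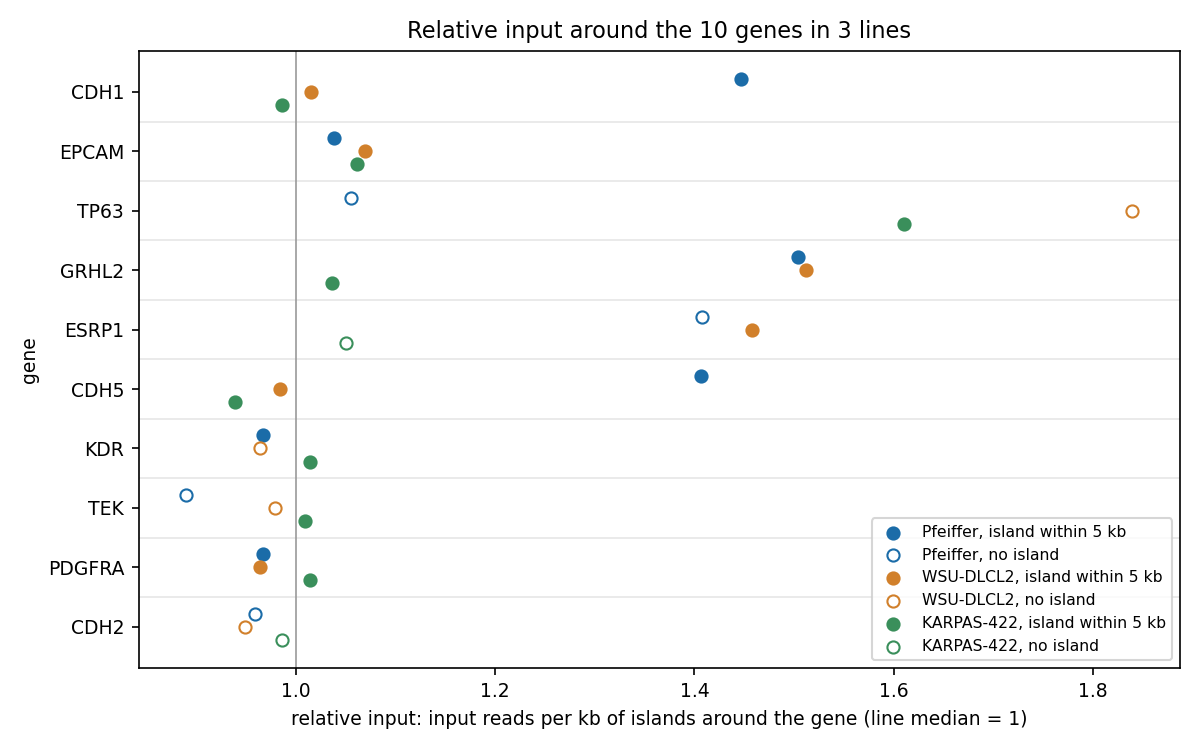
Relative input around each gene (input reads per kb of islands, median of the line = 1), with filled points where the line had an island within 5 kb and open points where it had none. Relative input, read in islands at and around the gene, is raised on chromosome 16 (CDH1, CDH5) in Pfeiffer. It is also raised around GRHL2 and ESRP1 in Pfeiffer and WSU-DLCL2, and around TP63 in WSU-DLCL2 and KARPAS-422.

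Cover is set beside regional input here, and the part of input in it was not tested. Leaving out CDH2, which had none, and CDH5, where Pfeiffer and WSU-DLCL2 tied, the line with most cover was also that of the highest relative input at 5 of 8 genes, and not at 3 (TP63, KDR and PDGFRA). How often the same line leads in cover and in input over the rest of the genome was not computed. Genes on 1 chromosome share regional input, and the differences of input at EPCAM, KDR, TEK and PDGFRA were small. At EPCAM and PDGFRA the covered share of Pfeiffer was far below that of both other lines while relative input was 1.04 to 1.07 and 0.96 to 1.01. The lines also differed in how far their islands coincided. At CDH5 93.9% of the bases covered in any line were covered in all 3, at CDH1 61.5% and at GRHL2 60.0%. The share was 2.04% at PDGFRA and 0 at EPCAM, although both had islands in every line. How far islands of the lines coincide over the rest of the genome was not computed. Of the epithelial windows together, 43.3%, 53.9% and 30.4% was covered, and of the endothelial windows 24.3%, 20.5% and 44.7%. The stromal windows had 0.393%, 17.1% and 11.5%. With 1 library per line, a second culture may give other islands.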

How the data were processed

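H3K27me3 and input libraries of 3 lines were sequenced by the submitters. The submitters' processing notes name Bowtie, SICER and the build hg19, with no versions. File names of the deposited lists state SICER's settings: 750-base windows, gaps of up to 2250 bases and an FDR of 0.001. Duplicate handling is not given in the sources used here. The deposited lists hold, per island, raw counts of H3K27me3 and input reads. The authors' p-values and q-values (false discovery rates) stand beside them, the latter used here only for an alternative. The authors' fold is a ratio of both counts after scaling, and returned library ratios of 1.16, 1.27 and 1.65. Folds of single islands are the authors' and describe islands within a list.

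Here islands within 5 kb of the 10 genes were taken, with positions counted from 1. All of an island's reads were counted, also those beyond the window. Gene positions are those of the rule, to 1 kb, and strands are textbook knowledge. Folds over several islands pool their counts. Relative input pooled islands centred in the 1 Mb bin of the gene and 2 Mb to either side, with at least 30 kb of islands. The gene's own islands were among them where it had any. Where a line had none at a gene, input at the gene itself was not measured. The intervals are Clopper-Pearson intervals at 95%. Members and lists were chosen with earlier results of these data known, and all 10 members are named. Gene order and promoters come from RefSeq tables for GRCh38.p14, whose coordinates are not printed. The counting functions were tested on simulated data. Reads outside islands, and so the libraries' depth, are unknown. Alternatives were a stricter false discovery rate, a fold of at least 2, other margins, joined islands, lists of equal covered length, reads shared out by length and other ways to pool or scale folds. Tools were scipy 1.17.1, pandas 2.3.3, numpy 2.4.6 and matplotlib 3.10.9 under Python 3.11.15.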

Additional observations from a re-analysis of the deposited data

How the results depend on the processing

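No paired analysis was possible because each line had 1 library. The margin (0 or 10 kb) left every count of genes and islands within 1.5 times its value. On the gene body alone Pfeiffer had islands at 4 genes in place of 6, since those of EPCAM and PDGFRA lie upstream. Lists of equal covered length were no check on the members. They kept autosomal islands down to folds of 1.23, 1.11 and 1.06, which is below every member's island, so none could be lost. Few of the members' islands reached a fold of 2. With a fold of at least 2, genes with an island numbered 1 (EPCAM), 0 and 2 (CDH1 and CDH5), islands 1, 0 and 3, genes covered to 50% 0, 0 and 1, genes with a covered start 0, 0 and 1, and the covered share was 0.263%, 0% and 4.08%. A false discovery rate of 1e-10 changed mainly KARPAS-422, to 4 genes, 12 islands, 1 covered start and 16.9% covered. It removed all islands of EPCAM, TP63, KDR and TEK there and that of KDR in Pfeiffer, and left 41.5% of GRHL2 and 24.1% of PDGFRA covered in KARPAS-422, so that 2 genes (CDH1 and CDH5) were covered to 50% there. Joining islands under 5 kb apart gave KARPAS-422 17 islands and 30.8% covered. Islands within 5 kb of the start, in place of over it, were found at 5, 6 and 4 genes of the 3 lines. Reads shared out by length inside the window lay outside the counting interval of the full reads in 13 of 20 pairs of gene and line; at CDH5 in Pfeiffer they fell to 1650. The median fold of single islands stayed inside the interval in 20 of 20. Where a gene had 1 island in a line, both folds are the same by construction, so such pairs were no check. Scaled to the other islands within 2 Mb, folds were 0.79 (CDH1 in WSU-DLCL2) to 1.34 (EPCAM in Pfeiffer), and below 1 in 9 of 20. Depth limits calls: the lowest listed fold of islands of 5 to 20 kb was 1.18, 1.18 and 1.14, and islands held at least 43, 42 and 38 H3K27me3 reads.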

Other observations

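Some island edges fell at nearly the same place in several lines, read on the calling grid of 750 bases. Past the end of CDH1, islands of Pfeiffer and WSU-DLCL2 both ended at 68877000 on chromosome 16 and that of KARPAS-422 at 68876250. Past the end of GRHL2 they ended at 102684000 on chromosome 8 in Pfeiffer and WSU-DLCL2 and at 102683250 in KARPAS-422. Upstream of CDH5, islands of WSU-DLCL2 and KARPAS-422 began at 66319501 and 66320251 on chromosome 16. Inside CDH1 the gap after 68790750 and up to 68794501 was the same in WSU-DLCL2 and KARPAS-422. These edges were picked after they were seen, and how often edges coincide elsewhere was not computed.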
